A study of Rattus norvegicus with 15 samples.

Results

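The miRNAs of the imprinted Dlk1-Dio3 domain were followed in rat heart on 15 miRNA arrays. They were chosen by name, as the unstarred rat miRNAs whose numbers belong to the cluster, and 43 of the 350 miRNAs on the array were members. Each array was hybridised with Cy3-labelled RNA from the heart of male Sprague-Dawley rats. The group called Veh was exposed to vehicle. The group called DM was made diabetic with streptozotocin, a toxin of insulin-producing cells, at 60 mg/kg into the tail vein, and its plasma glucose was above 300 mg/dL per the labels. The group called GF received the same streptozotocin and then a 24 h fast and intraperitoneal insulin at 0.5 IU/kg, a model of glucose fluctuation. The fast and the insulin were given together, so their effects cannot be told apart here.

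Each group had 5 arrays, spread over 2 slides. In 5 cases a pair of arrays of the same group, 1 on each slide, differed by less than the error stated in the array files, with a reduced chi-square of 0.243 to 0.630 over 156 miRNAs. Such a close pair was averaged and counted once, which left 4 Veh, 3 DM and 3 GF samples. The labels do not say that arrays came from separate animals, so p-values measure the spread between these samples, which may be technical. All 5 miRNAs that mark cardiac and striated muscle (miR-1, miR-133a, miR-133b, miR-208 and miR-499) were above background on all 15 arrays, and the liver marker miR-122 was detected on 0. Markers of other cells were present too. The 2 red cell, 4 leukocyte, 1 endothelial and 2 smooth muscle markers were detected on all 15 arrays. Of the 4 epithelial markers, miR-200c was detected on 15 arrays, miR-141 on 13, and miR-200a and miR-200b on 9 each. The tissue was whole heart, so fewer cells of a type and less RNA per cell cannot be told apart.

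In this domain the miRNAs are made from the maternal chromosome, from long non-coding transcripts that run from Meg3 to Mirg, while the protein-coding genes Dlk1, Rtl1 and Dio3 are expressed from the paternal one. The cluster is known to be active in the embryo, the placenta and the adult brain, and to fall in most other tissues after birth. Its miRNAs fall into groups by position. The hairpins of miR-431, miR-433, miR-127, miR-434 and miR-136 lie on the strand opposite to Rtl1, and their products are fully complementary to Rtl1 mRNA and cut it. The Mirg group, known as the miR-379 to miR-410 cluster, holds most of the others.

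All 43 members were matched by symbol to RefSeq entries of the GRCr8 assembly, and all 43 lie on the plus strand of chromosome 6, within 282 kb. The array names follow an older miRNA nomenclature. Of the 43 names, 9 equal a listed mature form, and 30 do not say which arm of the hairpin they mean. The sequences below are mature forms that RefSeq lists for miR-127, miR-434, miR-494 and miR-409-3p, shown because these members were detected on at least 4 arrays. miR-136, detected on all 15 arrays, is left out because its 5p form is not among the RefSeq forms used here. For miR-434 and miR-494 both arms are given, since the array name does not say which is meant. The form of miR-410 is added because it shares the seed of miR-494-5p. The seed, bases 2 to 8, is in capitals.
rno-miR-127-3p: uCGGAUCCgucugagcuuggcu
rno-miR-434-5p: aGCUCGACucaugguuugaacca
rno-miR-434-3p: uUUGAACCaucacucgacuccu
rno-miR-494-5p: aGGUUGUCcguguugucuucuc
rno-miR-494-3p: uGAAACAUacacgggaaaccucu
rno-miR-410-5p: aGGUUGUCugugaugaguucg
rno-miR-409a-3p: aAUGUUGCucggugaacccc

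The hairpin of miR-127 lies at chr6:134328454-134328550, that of miR-434 at chr6:134330402-134330482 and that of miR-136 at chr6:134331335-134331416. These 3 neighbours span 2.96 kb inside the Rtl1 locus. The hairpin of miR-494 lies 219 kb further on, at chr6:134550115-134550197, in the Mirg group. Among the mature forms listed for the members' hairpins, 3 seeds were shared by 2 forms each: miR-494-5p with miR-410-5p, miR-381-3p with miR-539-3p, and miR-376b-5p with miR-376c-5p. Of these 6 forms, those of miR-494 alone belonged to a miRNA that the arrays detected. The seed of miR-494-5p is also that of miR-496-5p, and no miR-496 was among the members on the array.

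Few members of the cluster were measurable in the heart. The scanner software called 9 of the 43 members detected on at least 1 array, 20.9%, against 194 of the other 307 miRNAs, 63.2%. It called miR-136 and miR-494 detected on all 15 arrays, and 34 members on 0 arrays. An array showed 2 to 6 detected members, with a median of 3. A stricter rule asked that more than 0.5 of a probe's spots be well above background. By that rule 1 to 4 members were above background per array, with a median of 2. A miRNA was tested between groups when its brightest probe met that rule on at least 3 of the 5 arrays of 1 group. Of the 43 members 2 were tested, 4.65%, against 163 of the other 307, 53.1%.

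**Figure D1:**
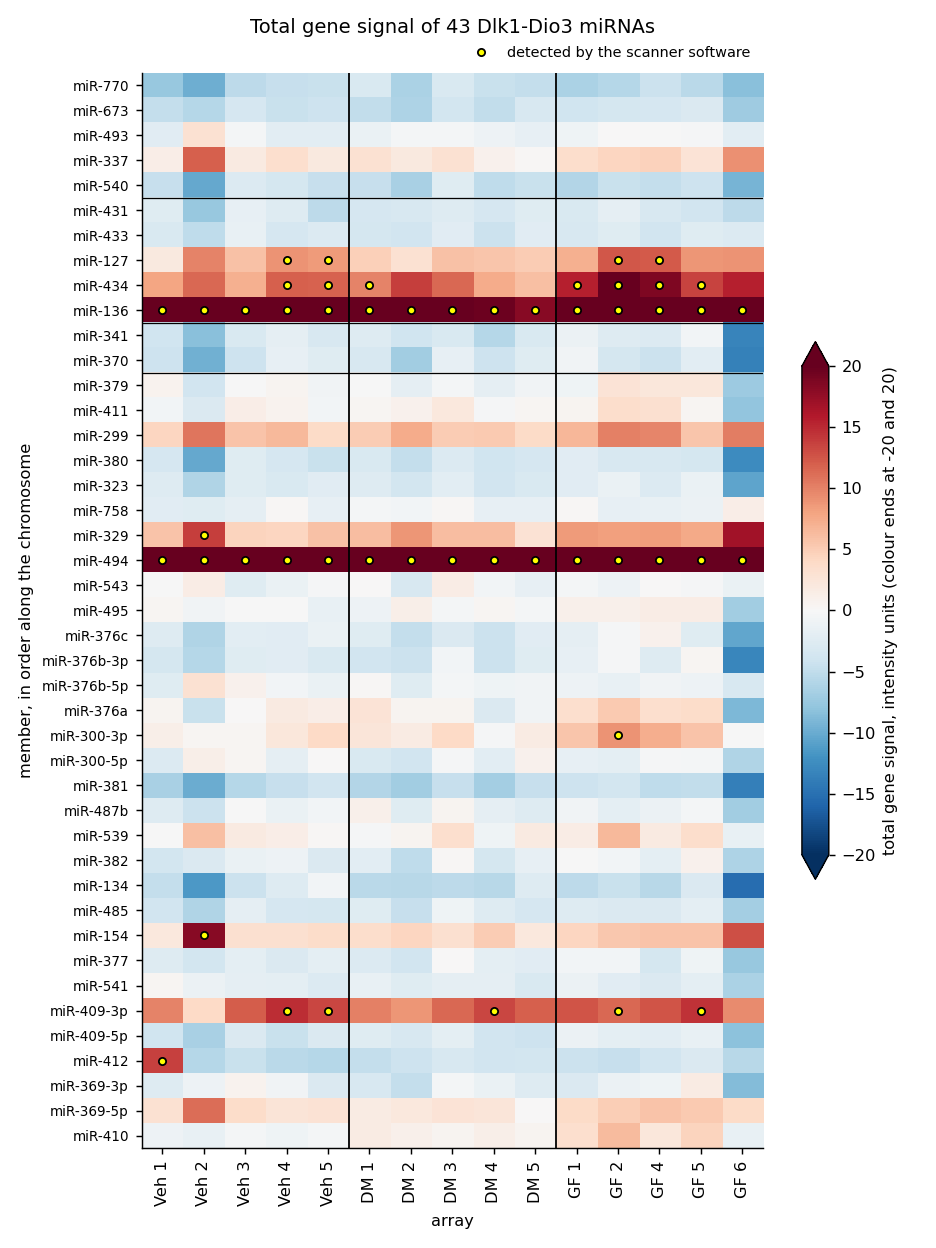
Total gene signal, an unscaled intensity, of each of the 43 members (rows, in order along chromosome 6, with lines between the positional groups) on each of the 15 arrays (columns); yellow points mark detection by the scanner software. miR-136 and miR-494 are detected on all 15 arrays, miR-127 and miR-434 beside miR-136 on 4 and 7, and most other rows lie near 0.

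By position, in the Rtl1 antisense group 3 of 5 members were detected on at least 1 array: miR-136 on 15, miR-434 on 7 and miR-127 on 4. These are the neighbouring hairpins described above, and the other two members of the group, miR-431 and miR-433, were detected on 0 arrays. In the Mirg group 6 of 31 were detected on at least 1 array, namely miR-494 on 15, miR-409-3p on 5, and miR-154, miR-300-3p, miR-329 and miR-412 on 1 each. In the 5 members near Meg3 (miR-770, miR-673, miR-493, miR-337 and miR-540) and the 2 near Meg8 (miR-341 and miR-370), 0 were detected. In the Mirg group miR-379, miR-411, miR-299, miR-380, miR-323, miR-758, miR-543, miR-495, miR-376a, miR-376b-3p, miR-376b-5p and miR-376c were not detected on any array. The same held for miR-300-5p, miR-381, miR-487b, miR-539, miR-382, miR-134, miR-485, miR-377, miR-541, miR-409-5p, miR-369-3p, miR-369-5p and miR-410. Among these undetected members are miR-134, known for limiting the growth of dendritic spines, and miR-379 and miR-410, which give the cluster its name. The total gene signals of the 34 undetected members ran from -15.3 to 12.01, and 27 of them had a median below 0. The upper end of that range overlapped signals that were called detected, such as 8.95 for miR-300-3p on GF 2. No detection call at this sensitivity does not show that the miRNA is absent.

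The 6 starred forms of member hairpins on the array, miR-136*, miR-323*, miR-376a*, miR-379*, miR-382* and miR-543*, were detected on 0 arrays. At other imprinted loci, miR-296*, miR-335 and miR-483 were detected on 15, 12 and 12 arrays, and 4 of 7 listed miRNAs on 0. Of 6 neural markers, miR-9, miR-128 and miR-218 were detected on all 15 arrays, while miR-124, miR-129 and miR-137 were detected on 0.

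Of the Rtl1 antisense group miR-136 was detected most often, with a low signal on every array. Its total gene signal before any scaling was 21.02, 33.8, 24.8, 22.2 and 24.4 on Veh arrays 1 to 5. The DM arrays 1 to 5 read 25.6, 29.7, 19.96, 19.6 and 18.2. The GF arrays 1, 2, 4, 5 and 6 read 33.2, 44.2, 40.1, 31.1 and 34.1. Every GF array lay above every DM array, and the GF and Veh groups overlapped at Veh 2. Of the 165 tested miRNAs, 7 had all GF arrays above all DM arrays in this unscaled signal, 4.24%. The GF arrays were brighter as a whole: with no scaling, the median difference over the 165 tested miRNAs was 0.35 for GF minus DM and 0.25 for GF minus Veh, on the log2 scale.

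Each array was therefore scaled to its own 75th percentile over 254 probes that were above background on all arrays. On that scale the log2 signal of miR-136 was 4.85 in the close pair Veh 1/3, 5.00 in Veh 2, 4.33 in Veh 4 and 4.62 in Veh 5. It was 5.01 in DM 1, 4.62 in the pair DM 2/4 and 4.39 in the pair DM 3/5. It was 5.05 in the pair GF 1/5, 4.94 in the pair GF 2/4 and 4.73 in GF 6. The 3 groups overlapped, with DM 1 inside the range of GF, and the lowest values stood close to the floor of 4.30 below which signals were set. The Veh samples averaged 4.70 ± 0.29 (SD, n = 4). The mean of the DM samples was 4.68 ± 0.31 (SD, n = 3) and that of the GF samples 4.91 ± 0.16 (SD, n = 3).

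The 2 tested members were compared between groups in a limma fit over all 165 tested miRNAs, with Benjamini-Hochberg adjustment and a threshold of 0.05. In GF minus Veh, 0 of the 2 members passed, where 13 of the 165 tested miRNAs did, 7.88%. These 13 included the epithelial markers miR-200c at 2.58 and miR-141 at 2.41 on the log2 scale (limma adjusted p = 0.0194 each). The epithelial markers miR-200a and miR-200b did not pass, at 0.07 and 0.02. In DM minus Veh and in GF minus DM, 0 of the 2 members and 0 of 165 miRNAs passed, 0%. At an unadjusted p under 0.05 the 3 comparisons had 51, 14 and 18 of 165 miRNAs, 30.9%, 8.48% and 10.9%, and 0 of the 2 members in each. With 2 members tested, these counts say little about the cluster.

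For miR-136, GF minus Veh was 0.21 on the log2 scale (SE 0.19, limma adjusted p = 0.488), with a 95% interval of -0.21 to 0.62. GF minus DM was 0.23 (SE 0.20, limma adjusted p = 0.676), with an interval of -0.21 to 0.68. DM minus Veh was -0.03 (SE 0.19, limma adjusted p = 0.983), with an interval of -0.44 to 0.39. None of these differences exceeded the spread between samples. The median of all tested miRNAs was -0.05, -0.08 and 0.03 in the same comparisons.

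**Figure D2:**
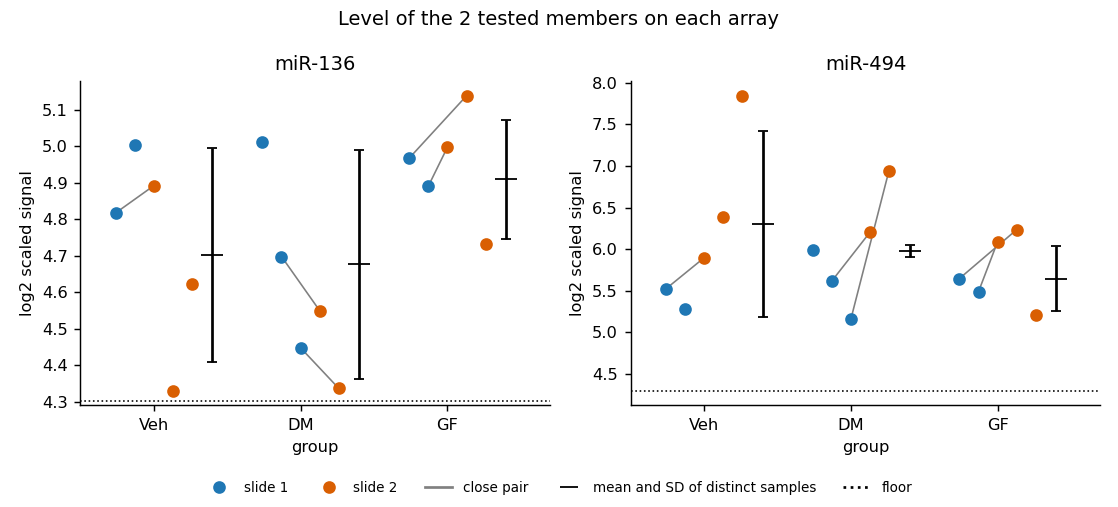
The log2 scaled signal of miR-136 (left) and miR-494 (right) on each array, by group; colour gives the slide, grey lines join close pairs, black marks are the mean and SD of the distinct samples and the dotted line is the floor of 4.30. The groups overlap for miR-136, and for miR-494 Veh 5 stands apart at 7.84 and each close pair rises from slide 1 to slide 2.

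miR-136 was the member that the authors' deposited table of group differences named. In that table its uncorrected p over the 3 groups was 0.00562, with a log2 fold of 0.54 for GF against Veh, 0.70 for GF against DM and -0.16 for DM against Veh. The authors' deposited table listed 35 of 149 miRNAs in all, 23.5%, with 30 (20.1%) for GF against Veh and 20 (13.4%) for GF against DM. The 149 miRNAs of the authors' deposited table of filtered values held 2 members, miR-136 and miR-494. Those deposited values were made with no scaling between arrays. With no scaling and all 15 arrays counted as separate samples, an alternative chosen after seeing the data, miR-136 passed in 2 comparisons: GF minus Veh was 0.55 (limma adjusted p = 0.0204) and GF minus DM was 0.70 (limma adjusted p = 0.0223). In those fits 30 (18.2%) and 7 (4.24%) of the 165 miRNAs passed. With no scaling and the 10 distinct samples it did not pass, at 0.53 (limma adjusted p = 0.105) and 0.67 (limma adjusted p = 0.141), where 18 (10.9%) and 1 (0.606%) of the 165 miRNAs did.

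Scaling shifts all miRNAs of an array by the same amount, so apart from the floor it leaves the distance of a miRNA from the median of all tested miRNAs in place by construction. That distance for miR-136 in the 10 distinct samples, with scaling, was 0.26 in GF minus Veh and 0.32 in GF minus DM. The sizes of miR-136 also moved with the samples used. GF minus DM ranged from 0.09 without the pair DM 3/5 (limma adjusted p = 0.827) to 0.44 without array DM 1 among the 15 arrays (limma adjusted p = 0.0567). GF minus Veh ranged from 0.08 without Veh 4 (limma adjusted p = 0.823) to 0.31 without Veh 2 (limma adjusted p = 0.298). The sign was opposite under 1 background correction. With normexp, GF minus DM was -0.34 (limma adjusted p = 0.172), where the median of all tested miRNAs was -0.20, and miR-136 stood at -0.14 relative to it. GF minus Veh with normexp was -0.10 (limma adjusted p = 0.666), where that median was also -0.10, and miR-136 stood at -0.0046 relative to it. By slide, also an alternative chosen after seeing the data, GF minus DM was 0.21 on slide 1 (limma adjusted p = 0.722) and 0.51 on slide 2 (limma adjusted p = 0.598). GF minus Veh was 0.02 on slide 1 and 0.34 on slide 2. The second probe of miR-136 was above background on 2 of 15 arrays, so 1 probe carries these values.

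**Figure D3:**
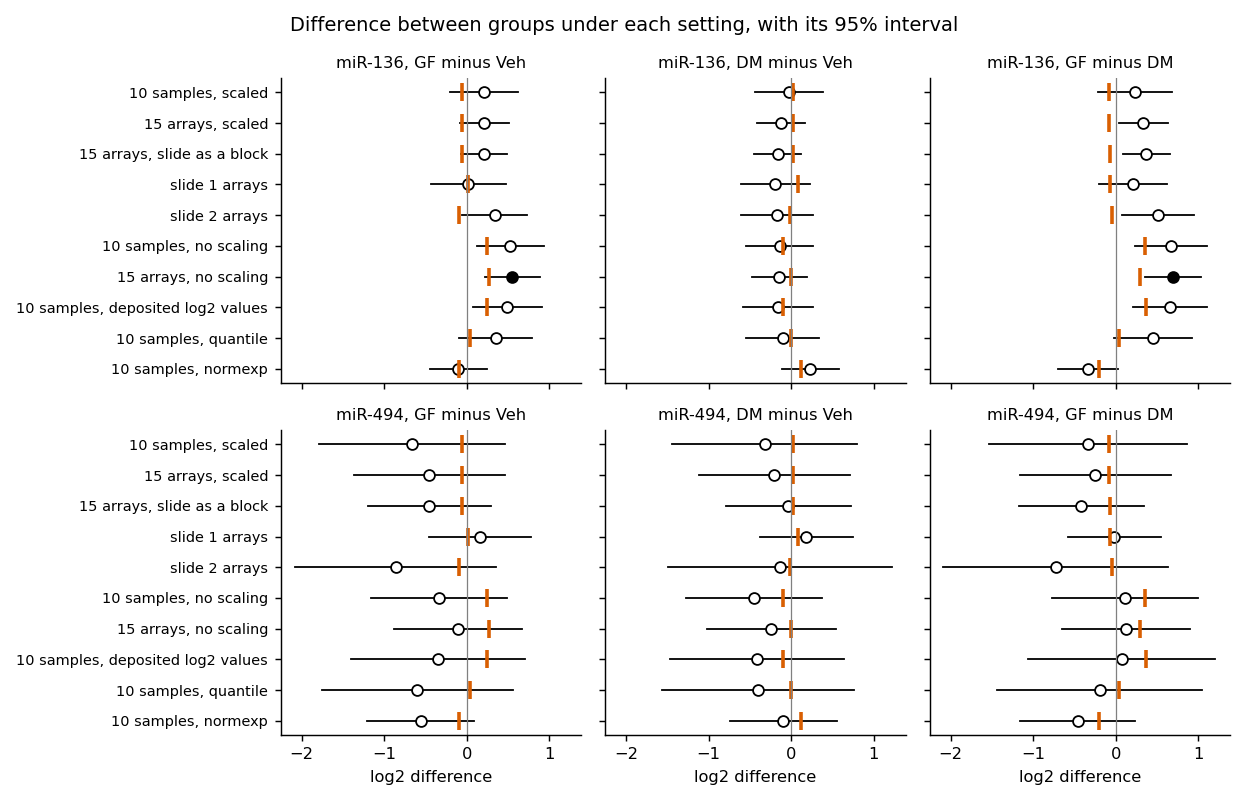
Difference between groups, on the log2 scale, for miR-136 (top) and miR-494 (bottom) under 10 settings, with 95% intervals; filled points have a limma adjusted p under 0.05 and orange ticks mark the median of all tested miRNAs. miR-136 is filled only at 15 arrays with no scaling, where GF minus Veh is 0.55 and GF minus DM 0.70 and the orange ticks shift to the right as well, and its 3 differences change sign under normexp, where the ticks lie at -0.10, 0.12 and -0.20.

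The neighbours of miR-136 were near the limit of detection. miR-434 read 7.94, 11.4, 7.14, 11.96 and 11.8 on Veh arrays 1 to 5 and 9.85, 13.8, 11.5, 7.40 and 5.96 on DM arrays 1 to 5, as unscaled total gene signal. It read 15.6, 21.7, 18.6, 13.5 and 15.6 on GF arrays 1, 2, 4, 5 and 6. All GF arrays lay above all Veh arrays, which 13 of the 350 miRNAs showed, 3.71%, and the GF and DM groups overlapped at DM 2. Detection by the software covered 4 GF, 1 DM and 2 Veh arrays, and the probe was well above background on GF 2 and GF 4 alone.

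miR-127, which is known to silence Rtl1, read 1.98, 9.91, 5.93, 8.96 and 8.50 on Veh arrays 1 to 5. It read 4.82, 3.07, 5.91, 5.48 and 5.12 on DM arrays 1 to 5, and 7.19, 12.4, 12.2, 8.75 and 9.03 on GF arrays 1, 2, 4, 5 and 6. All GF arrays lay above all DM arrays, which 11 of the 350 miRNAs showed, 3.14%, and GF overlapped with Veh. It was detected on 2 GF, 2 Veh and 0 DM arrays. The stated error of a reading of miR-127 or miR-434 had a median of 3.53 or 3.61, and after scaling both lay under the floor on all 15 arrays. Neither was well above background on enough arrays of a group to be tested, so no difference was tested.

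The 3 neighbours had the same pair of arrays at the top. GF 2 gave the highest and GF 4 the next highest unscaled signal for miR-136, miR-434 and miR-127, and these arrays are a close pair counted as 1 sample. That order of brightness was common on these arrays: GF 2 and GF 4 held the top of 30 of the 165 tested miRNAs, 18.2%, and GF 2 was highest for 98 of them, 59.4%. GF 2 also had the highest 75th percentile over all probes, 74.9 against 39.6 to 61.5 on the others. As scaled intensity before log2, the brightest probe of miR-434 read 11.5 on GF 6, below 11.8 on Veh 2 and 13.0 on Veh 5. The other GF arrays stayed above all Veh arrays. That of miR-127 read 9.08 on GF 1 and 8.03 on GF 6, below 9.43 on DM 1. Its other GF arrays stayed above all DM arrays. All these values lay under the floor, 19.7 in these units. The part of array brightness in the signals of miR-434 and miR-127 was not tested.

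**Figure D4:**
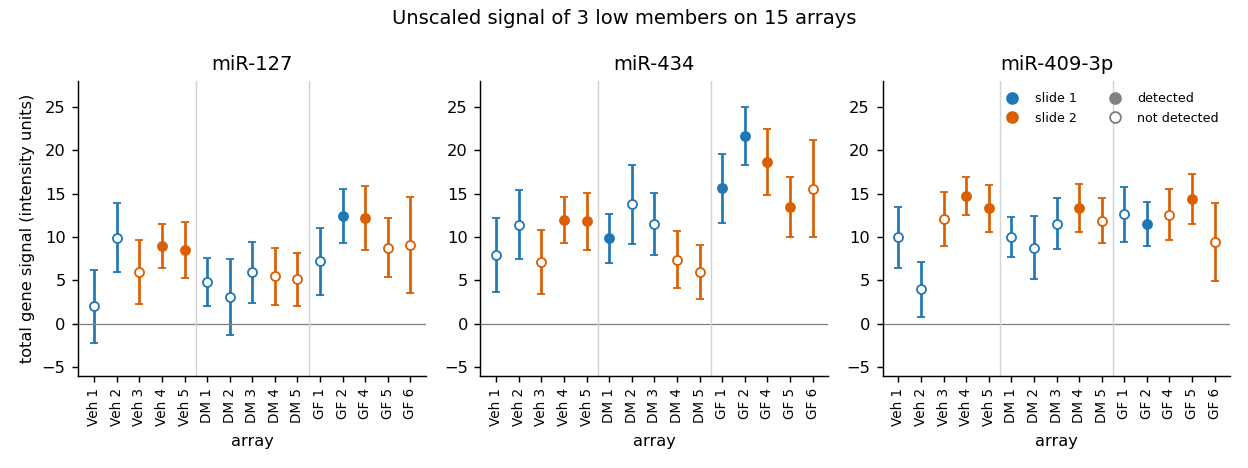
Unscaled total gene signal of miR-127, miR-434 and miR-409-3p on each of the 15 arrays, with the error stated in the array files as bars; filled points were called detected, and colour gives the slide. miR-434 lies between 13.5 and 21.7 on the GF arrays and between 7.14 and 11.96 on the Veh arrays, while miR-409-3p overlaps between all groups.

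miR-494 was the other tested member, a miRNA studied in ischaemic injury of the heart. Its log2 scaled signal was 5.71 in the close pair Veh 1/3, 5.29 in Veh 2, 6.38 in Veh 4 and 7.84 in Veh 5. It was 5.99 in DM 1, 5.91 in the pair DM 2/4 and 6.05 in the pair DM 3/5. It was 5.94 in the pair GF 1/5, 5.79 in the pair GF 2/4 and 5.21 in GF 6. Veh 5 stood apart above all other samples, GF 6 was the lowest, and the other samples of the 3 groups overlapped. Over the 156 miRNAs used for the close pairs, the reduced chi-square of Veh 5 was 3.25 to 4.09 against the other Veh arrays. It was 1.15 to 1.91 against DM 1, DM 2 and DM 4, and 5.08 and 5.56 against DM 5 and DM 3. Against the GF arrays it was 2.27 to 5.47. Why Veh 5 lay closer to some DM arrays was not tested. The Veh samples averaged 6.31 ± 1.12 (SD, n = 4). The mean of the DM samples was 5.98 ± 0.07 (SD, n = 3) and that of the GF samples 5.65 ± 0.39 (SD, n = 3). The small SD of DM follows averaging of close pairs: single DM arrays ran from 5.16 on DM 3 (slide 1) to 6.94 on DM 5 (slide 2). Veh 2 and DM 1 were on slide 1 alone, and Veh 4, Veh 5 and GF 6 on slide 2 alone. Sample values therefore mix averages over both slides with readings from 1 slide.

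No group difference of miR-494 exceeded the spread between samples. GF minus Veh was -0.66 (SE 0.50, limma adjusted p = 0.432), with a 95% interval of -1.78 to 0.47. DM minus Veh was -0.32 (SE 0.50, limma adjusted p = 0.795), with an interval of -1.45 to 0.80, and GF minus DM was -0.34 (SE 0.54, limma adjusted p = 0.803), with an interval of -1.54 to 0.87. Veh 5 decided the size: without it GF minus Veh was -0.15 (limma adjusted p = 0.702) and DM minus Veh turned to 0.19 (limma adjusted p = 0.720). GF minus Veh ranged from -0.997 without Veh 2 (limma adjusted p = 0.195) to -0.04 without array Veh 5 among the 15 arrays (limma adjusted p = 0.934). GF minus DM ranged from -0.48 without the pair GF 1/5 (limma adjusted p = 0.720) to -0.0060 without array DM 5 among the 15 arrays (limma adjusted p = 0.995). Before scaling, Veh 5 read 199 in total gene signal, against 28.4 to 72.8 on the other Veh arrays, 28.5 to 91.4 on the DM arrays and 38.6 to 66.9 on the GF arrays. Both probes of miR-494 were highest on Veh 5, at 7.84 and 6.25 on the log2 scale. The second probe was well above background on 5 of 15 arrays, with a median at the floor of 4.30. GF minus DM took the other sign with no scaling, at 0.11 (limma adjusted p = 0.858).

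miR-494 also differed between slides within the close pairs. In all 5 close pairs it was higher on slide 2 than on slide 1, by 0.37 in Veh 1/3, 0.59 in DM 2/4, 1.79 in DM 3/5, 0.59 in GF 1/5 and 0.60 in GF 2/4, on the log2 scale. The mean of these differences was 0.79, the highest of the 165 tested miRNAs, whose median was -0.04. It ranked 1 of 165 in 4 pairs and 3 of 165 in the pair GF 2/4. In total gene signal the pair DM 3/5 read 28.5 on slide 1 and 91.4 on slide 2. miR-136 differed by 0.02 on average and was higher on slide 2 in 3 of the 5 pairs. Of the 165 tested miRNAs, 8 were higher on slide 2 in all 5 pairs. The next in rank by mean difference, miR-145 and miR-133b, reached 0.24 and 0.21.

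**Figure D5:**
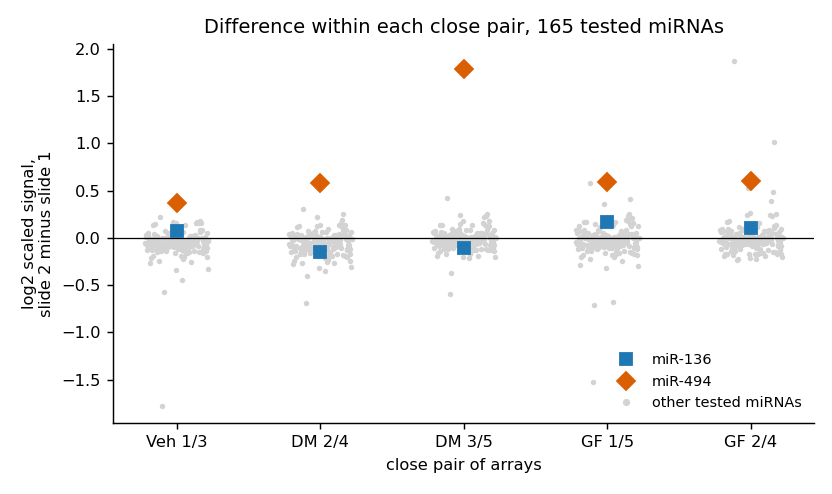
Slide 2 minus slide 1 within each of the 5 close pairs, on the log2 scale, for miR-494 (orange diamonds), miR-136 (blue squares) and the other tested miRNAs (grey points). miR-494 lies between 0.37 and 1.79 in the 5 pairs, above nearly all of the grey points.

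Within slide 1 alone, GF minus Veh of miR-494 was 0.16 (limma adjusted p = 0.768) and within slide 2 it was -0.86 (limma adjusted p = 0.305). DM minus Veh was 0.18 on slide 1 (limma adjusted p = 0.717) and -0.13 on slide 2 (limma adjusted p = 0.964). GF minus DM was -0.02 on slide 1 (limma adjusted p = 0.949) and -0.73 on slide 2 (limma adjusted p = 0.742). With slide as a block over the 15 arrays, GF minus Veh was -0.45 (limma adjusted p = 0.330). The slides were scanned apart, per the file headers, and the part of the slide in the group values was not tested beyond these fits.

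The remaining detected members of the Mirg group gave low signals. miR-409-3p was detected on 2 Veh, 1 DM and 2 GF arrays. Its unscaled signal was 9.95, 3.97, 12.1, 14.8 and 13.3 on Veh arrays 1 to 5, and 10.03, 8.78, 11.5, 13.3 and 11.9 on DM arrays 1 to 5. It was 12.6, 11.5, 12.6, 14.4 and 9.43 on GF arrays 1, 2, 4, 5 and 6, and the 3 groups overlapped throughout. miR-300-3p was detected on GF 2 alone, at 8.95, and ran from -0.23 to 7.24 on the other arrays. miR-154 and miR-329 were detected on Veh 2 alone, at 18.1 and 13.8. miR-412 was detected on Veh 1 alone, at 13.7, and was below 0 on the other 14 arrays. Of the 5 spots of its brightest probe on Veh 1, 2 were well above background, and the highest spot read 166 where the median of the 5 was -0.45.

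Low signals of this kind were widest on GF 6 and Veh 2. Of the 41 members that were not tested, 23 had their lowest signal on GF 6 and 7 on Veh 2, while 10 had their highest on GF 2 and 8 on Veh 2. The median signal of these 41 was -6.29 on GF 6 and between -3.14 and -0.35 on the other arrays.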

How the data were processed

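The members and lists were chosen with earlier results of these data known. Scans were quantified in Agilent Feature Extraction 9.5.3.1, per the file headers and the submitters' processing notes. The deposited array files give each spot's intensity after background subtraction, unscaled, and for each miRNA a total gene signal with an error. The authors deposited log2 values of 149 miRNAs that passed their filter, recomputed here to within 2.05e-06 as log2 total gene signal minus the control mean. Per the file headers, the authors' deposited tables of comparisons hold an uncorrected p-value per miRNA.

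Flagged spots were dropped (153 to 294 of 7000 per array), and none was saturated (0). Intensity was averaged per probe, then scaled to the 75th percentile over 254 probes and floored at 4.30 (log2). The brightest of 1 to 4 probes stood for a miRNA. Of 350 miRNAs, 165 were tested with limma 3.58.1 (R 4.3.3; lmFit, eBayes, two-sided), in 1 fit of all groups, checked on simulated data. From 166 to 190 miRNAs were detected per array, and the number of arrays limits the precision. The array files used here hold no mean signal, so the normexp alternative took the median signal, with an offset of 50. Every tested member is given with all its values, members detected on some arrays with their number, and the others by name. Plots used matplotlib 3.10.9 (Python 3.11.15).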

Additional observations from a re-analysis of the deposited data

Results flagged for a closer look

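In 6 of 27 groups of 5 arrays, formed by the 9 members detected on at least 1 array and the 3 treatments, the top array lay far from the others in total gene signal. The gap to the nearest array was then more than 0.71 of the group's range, a limit that chance passes in about 1 in 20 groups of normal values. These 6 are 22.2% of the members' groups. Over all miRNAs detected on at least 1 array, 58 of 609 such groups, 9.52%, had an array that far from the others. In 3 of the 6 cases, miR-412 on Veh 1 and both miR-154 and miR-329 on Veh 2, the array was the only one on which the member was detected. Those members entered the count through that array, so it had to stand high, and nothing is read from the number of cases. miR-494 read 199 on Veh 5, where the next Veh array read 72.8. miR-412 read 13.7 on Veh 1, where the next Veh array was at -4.50. miR-154 read 18.1 on Veh 2 against 3.63 on the next Veh array, and 12.9 on GF 6 against 5.73 on the next GF array. miR-329 read 13.8 on Veh 2 against 5.79 on the next Veh array, and 16.7 on GF 6 against 8.56 on the next GF array.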

How the results depend on the processing

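The number of members past the threshold was 0 in each comparison, and stayed 0 in all 25 fits that left out 1 sample or array. With 15 arrays and scaling, 0 of the 2 members passed in each comparison. In that fit 60 of the 165 miRNAs passed in GF minus Veh, 3 in DM minus Veh and 6 in GF minus DM. The number of members was 1 in GF minus Veh and 1 in GF minus DM with 15 arrays and no scaling, where miR-136 passed at 0.55 and 0.70. With 2 members tested, these counts say little about the cluster. The number of members above background had a median of 2 per array, and the number detected by the software's call a median of 3. Counted over the arrays together, 4 members were above background on at least 1 array and 1 on all 15. Signs of differences that did not pass turned as follows, and the cause was not tested. For miR-136, normexp gave -0.10 in GF minus Veh, 0.23 in DM minus Veh and -0.34 in GF minus DM, where the medians of all tested miRNAs were -0.10, 0.12 and -0.20. DM minus Veh of miR-136 ranged from -0.19 to 0.12 when 1 sample was left out and down to -0.23 when 1 array was, and was above 0 in 3 of those fits (0.02 without Veh 1/3, 0.07 without Veh 2, 0.12 without DM 3/5). For miR-494, DM minus Veh ranged from -0.66 to 0.21 and was above 0 in 3 fits (0.19 without Veh 5, 0.21 without array Veh 5 and 0.0014 without array DM 3 among the 15 arrays). On slide 1 alone it was 0.18, and GF minus Veh was 0.16. GF minus DM of miR-494 was 0.11 with no scaling, 0.071 with the authors' deposited log2 values and 0.13 with 15 arrays and no scaling. The strict filter (all 15 arrays) left miR-136 out.

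With the replicate number of the labels as a replicate block, 0 of the 2 members passed in each comparison. A count over 2 members says little. In that fit miR-136 stood at 0.27 in GF minus Veh and 0.39 in GF minus DM, miR-494 at -0.46 and -0.25. Between arrays of the same number, deviations from the group means correlated at -0.53 to 0.47. In the authors' deposited values some GF arrays carry other replicate numbers than in the labels. Arrays of different numbers were not compared, so these correlations cannot show whether the numbers pair samples. Signals near background limit the members, miR-494 least. Its brightest probe was well above background on all 15 arrays, its second probe on 5.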
